A study of Caenorhabditis elegans with 2 samples.

Results

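Binding of VAB-15 at 10 axon guidance genes of Caenorhabditis elegans was read from ChIP-seq peak lists of whole L1 larvae. The transcription factor VAB-15 carries an Msx-class homeodomain. The worms, of strain XIL99 and mixed sex, were starved following bleach synchronization and carried a C-terminal GFP-FLAG tag on VAB-15, inserted with CRISPR at vab-15. There was 1 group with 2 biological replicates, so nothing was compared between conditions. The genes were unc-6, unc-40, unc-5, slt-1, sax-3, mab-20, smp-1, plx-1, plx-2 and vab-1, chosen by name among 19973 protein-coding genes. A region belonged to a gene when its summit lay inside the gene or within 5000 bp upstream of its start, the annotated 5′ end. By this rule 97 of the 30000 regions in the pooled list belonged to them, 90 of 30000 in replicate 1 and 89 of 30000 in replicate 2. Each list ranks regions by the authors' signal value, with rank 1 the strongest. The 990 strongest regions of the pooled list are the authors' optimal peak set, thresholded over both replicates; the full lists have a preset size and, by the authors' name for them, hold background as well as peaks. Depth is unknown, because the lists hold no read counts, and precision is limited to what 2 replicates give. Since whole larvae were used, strong binding in few cells and weak binding in many cannot be told apart.

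Growing axons read guidance cues through receptors on their growth cones. UNC-6 netrin acts through UNC-40, a receptor of the DCC family, and UNC-5, which is needed for repulsion from netrin. SLT-1 is the Slit ligand of SAX-3, the Robo receptor, and in C. elegans the Slit and netrin systems together guide the ventral growth of touch receptor axons such as that of AVM. MAB-20 and SMP-1 are semaphorins, whose receptors are the plexins PLX-2 and PLX-1. VAB-1 is the Eph receptor tyrosine kinase, the receptor of the ephrins.

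Regions of differing rank at some of these genes are shown on the plus strand of ce11, to let their make-up be compared. Each runs from 50 bases before to 50 bases after the pooled summit. The first set holds the plx-1 peak, which is in the optimal set, and the 3 strongest regions of sax-3. The next holds a unc-6 and a vab-1 region, shown because they stood high in replicate 2 and low or absent in replicate 1. The last holds 2 plx-2 regions, shown because they carry TAATTG and lay in both replicates. The unc-40 peak, the strongest region of all, the smp-1 region that ranks between those of sax-3, and the regions of unc-5, slt-1 and mab-20 are not shown. Capitals mark TAATTG or TAATTA on either strand, the core sequences bound by homeodomains of the Msx class and its relatives.
plx-1, chrIV:957949-958049, 1522 bp upstream of the gene start: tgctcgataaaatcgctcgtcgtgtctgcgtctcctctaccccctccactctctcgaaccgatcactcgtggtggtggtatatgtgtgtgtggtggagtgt
sax-3, chrX:3465967-3466067, 90 bp upstream of the gene start: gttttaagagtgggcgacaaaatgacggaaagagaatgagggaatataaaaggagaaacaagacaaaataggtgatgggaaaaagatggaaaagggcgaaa
sax-3, chrX:3464712-3464812, in an intron: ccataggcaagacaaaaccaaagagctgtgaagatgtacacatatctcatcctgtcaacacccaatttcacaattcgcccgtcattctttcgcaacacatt
sax-3, chrX:3455686-3455786, in an intron: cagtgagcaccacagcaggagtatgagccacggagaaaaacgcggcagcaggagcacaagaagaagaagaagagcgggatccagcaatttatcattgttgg
unc-6, chrX:6894181-6894281, in an intron: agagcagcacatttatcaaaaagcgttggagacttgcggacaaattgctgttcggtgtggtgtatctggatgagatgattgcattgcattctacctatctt
vab-1, chrII:4589991-4590091, in a coding exon: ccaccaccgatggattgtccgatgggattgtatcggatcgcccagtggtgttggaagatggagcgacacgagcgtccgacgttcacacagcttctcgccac
plx-2, chrII:14426246-14426346, 1405 bp upstream of the gene start: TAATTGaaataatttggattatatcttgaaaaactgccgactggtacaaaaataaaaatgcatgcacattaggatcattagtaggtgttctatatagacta
plx-2, chrII:14420802-14420902, in a coding exon: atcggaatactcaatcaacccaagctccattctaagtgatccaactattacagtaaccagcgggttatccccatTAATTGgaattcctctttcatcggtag

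None of the 6 stronger windows shown, those of plx-1, sax-3, unc-6 and vab-1, held either core, nor even TAAT on either strand. TAAT was absent from many other regions too: 47 of the 97 held it, and 52.7% of all pooled regions. The 6 windows are too few to tell whether stronger regions differ in this. Their GC content ran from 38.6% at the sax-3 start to 58.4% in the vab-1 exon, with 54.5% at the plx-1 peak. The plx-2 windows, of far lower rank (14111 and 15012), each held TAATTG once, the upstream one at its very edge. Over all 97 regions, 9 (9.28%) held TAATTG or TAATTA within 50 bp of the summit, counted on both strands, against 9.91% of all 30000 pooled regions and 13.8% of the 990 optimal peaks. At this distance from the summit, the share at the guidance genes was thus near that of the whole list. The 9 lay at smp-1 (3 regions), plx-2 (2), unc-40, unc-5, slt-1 and mab-20 (1 each), and the strongest of them, in a coding exon of unc-40, ranked 6509. Median GC content was 42.6% at the 10 genes, 40.6% in the whole list and 46.5% in the optimal set.

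VAB-15 peaks of the optimal set were found at 2 of the 10 genes, both receptors: unc-40 and plx-1. The other 8 genes held none. The share of 20% stands beside 9.28% of all protein-coding genes with the same kind of window. Its exact Clopper-Pearson 95% interval, 2.52% to 55.6%, covers counting over 10 genes only. It treats genes chosen by name as independent draws. The windows of the 10 genes were long, with a median of 15332 bp against 7027 bp for all genes, and among the 1918 genes with windows of like length 14.9% held an optimal peak. Counted over regions, 2 of 97 (2.06%) were optimal peaks, against 3.30% of the whole pooled list. With 2 genes behind them, neither share can be set apart from its background, and neither difference was tested. The genes held 0.508 pooled regions per kb of window, against 0.361 in the windows of like length and 0.320 over all gene windows. This difference was not tested, and the density varied by gene, from 0.160 at unc-6 to 0.903 at smp-1. Of the 97 summits, 70 lay nearest to a start of the guidance gene itself, and the rest nearer to that of another gene. In the stronger 15000 of the list were 45 of the 97.

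The unc-40 peak (gene WBGene00006776, minus strand, chromosome I from 5679837 to 5691503) spanned 5691555 to 5691930, with its summit 240 bp upstream of the gene start. Its signal was 114 in the pooled list, where it ranked 862. In replicate 1 the strongest unc-40 region had a signal of 87.0 and ranked 731, with a summit 325 bp upstream, while that of replicate 2 had a signal of 30.4 and ranked 2365, with a summit 239 bp upstream. The summits of the replicates lay 86 bp apart, so both placed their strongest unc-40 region at the same site, but only replicate 1 had it among its 990 strongest. The site is shared: the start of npp-7, which encodes a nuclear pore protein and runs the other way, lay 521 bp from the pooled summit. Which of the genes the signal belongs to was not tested. A weaker pooled region overlapped the peak, with its summit 453 bp upstream and a rank of 3387, and lay nearer to npp-7 (308 bp). The other 4 regions upstream of unc-40, of ranks 4676 to 15378, lay downstream of the npp-7 start, and the 7 regions inside unc-40 ranked 5432 to 27267.

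The plx-1 peak (gene WBGene00004047, plus strand, chromosome IV from 959521 to 984395) spanned 957811 to 958186. Its summit lay 1522 bp upstream, in sequence outside annotated genes, and the start of plx-1 was the nearest, with that of the next gene, faah-3, 12346 bp away. Its signal was 113 in the pooled list (rank 908) and 86.5 in replicate 1 (rank 741). Replicate 2 had a pair of weaker regions there, 1689 bp upstream with a signal of 27.4 (rank 3461) and 1428 bp upstream with a signal of 22.1 (rank 7241). In this replicate the strongest plx-1 region was instead one in a coding exon, 137 bp before an internal transcript start (signal 28.1, rank 3148). The pooled region nearest to that site ranked 14720, and in replicate 1 the nearest lay 376 bp before the start and ranked 17353. Inside plx-1 the strongest pooled region, 23529 bp downstream of the gene start, ranked 5430. It ranked 3786 in replicate 1 and had no region of replicate 2 within 100 bp. The start nearest to it was that of another gene, egrh-2, 5338 bp away.

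**Figure D1:**
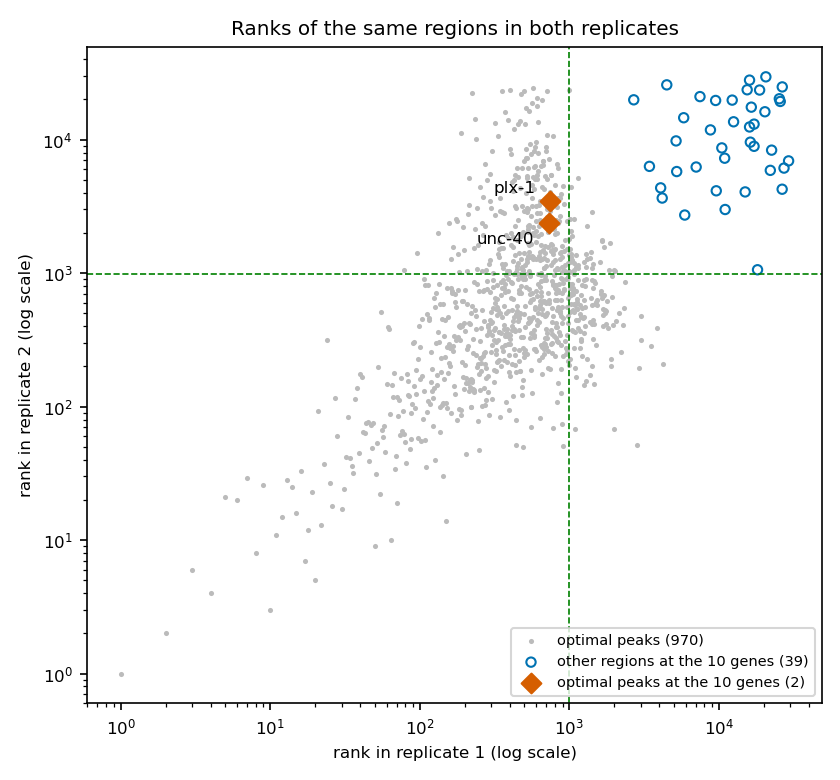
Rank in replicate 1 (x axis, log scale) against rank in replicate 2 (y axis, log scale) of pooled regions whose summit lies inside a region of each replicate: 970 optimal peaks (grey), the 2 optimal peaks at the guidance genes (diamonds) and 39 other regions at these genes (open circles), with dashed lines at rank 990. The unc-40 and plx-1 peaks stand at ranks 731 and 741 in replicate 1 and at 2365 and 3461 in replicate 2, above the dashed line.

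Both peaks thus ranked among the strongest 990 in replicate 1 alone. In replicate 1, 2 of the 10 genes (20%) had such a region, against 9.23% of all genes and 14.9% of those with like windows; in replicate 2 it was 0 of 10, against 8.62% and 14.2%. Across the whole optimal set, 838 of 990 peaks were matched by a replicate 1 region of rank 990 or better, and 655 by such a replicate 2 region. In replicate 2, 166 optimal peaks ranked lower than the unc-40 peak or had no region, and 113 stood below the plx-1 peak in this sense. Both signals were in the weaker part of the set, which runs from 108 upwards with a median of 143. The plot of ranks in both replicates sets them beside the other optimal peaks.

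The netrin ligand gene unc-6 (WBGene00006746, chromosome X from 6889674 to 6897147) had 2 regions in the pooled list, 1 in replicate 1 and 5 in replicate 2. Its intronic region 4557 bp downstream of the gene start had a pooled signal of 52.7 and ranked 7933. The replicates differed here: in replicate 2 the region had a signal of 38.4 and ranked 1039, whereas the only unc-6 region of replicate 1 lay 803 bp away from the pooled summit, with a signal of 33.3 and rank 11723. No pooled region of unc-6 lay upstream of its start. At unc-5 (WBGene00006745, chromosome IV from 5495664 to 5528338), which encodes the other netrin receptor, there was likewise none in the pooled list, and the first region inside the gene lay 4749 bp downstream of its start. Its strongest region lay deep in the gene, in an intron 20415 bp downstream of the gene start and 980 bp downstream of an internal transcript start. The rank was 4672 in the pooled list (signal 63.4), 4075 in replicate 1 (47.9) and 4354 in replicate 2 (25.6). Here the replicates gave close ranks and summits 89 bp apart. The 11 pooled regions of unc-5 reached rank 27971.

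At sax-3 (WBGene00004729, chromosome X from 3451908 to 3465927), the Robo receptor gene, 11 pooled regions were spread from 1681 bp upstream to 12414 bp downstream of the start. The region at the start itself, 90 bp upstream, had a signal of 75.2 (rank 2839), and ranked 3429 in replicate 1 (signal 50.8) and 6308 in replicate 2 (23.0). An intronic region 1165 bp downstream was as strong in the pooled list, with a signal of 75.1 (rank 2857), and ranked 4173 in replicate 1 and 3652 in replicate 2. Its nearest annotated start was that of another gene, ZK377.15, 1123 bp away. Another, in an intron 10191 bp downstream, ranked 3271 in the pooled list, and the start nearest to it was that of ZK813.5, 4514 bp away. All 3 had summits within 100 bp in both replicates, yet neither replicate had its strongest sax-3 region at one of them. That of replicate 1 lay 1677 bp upstream (rank 2693) and that of replicate 2 lay 8149 bp downstream (rank 2974). The Slit gene slt-1 (WBGene00004854, chromosome X from 14674328 to 14683324) had the weakest regions of the 10 genes. Its best ranks were 15408 in the pooled list (signal 41.2, 93 bp upstream), 20567 in replicate 1 (26.3) and 10264 in replicate 2 (19.8), each at another place. The region 93 bp upstream had summits within 100 bp in both replicates, at ranks 25668 and 19333.

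**Figure D2:**
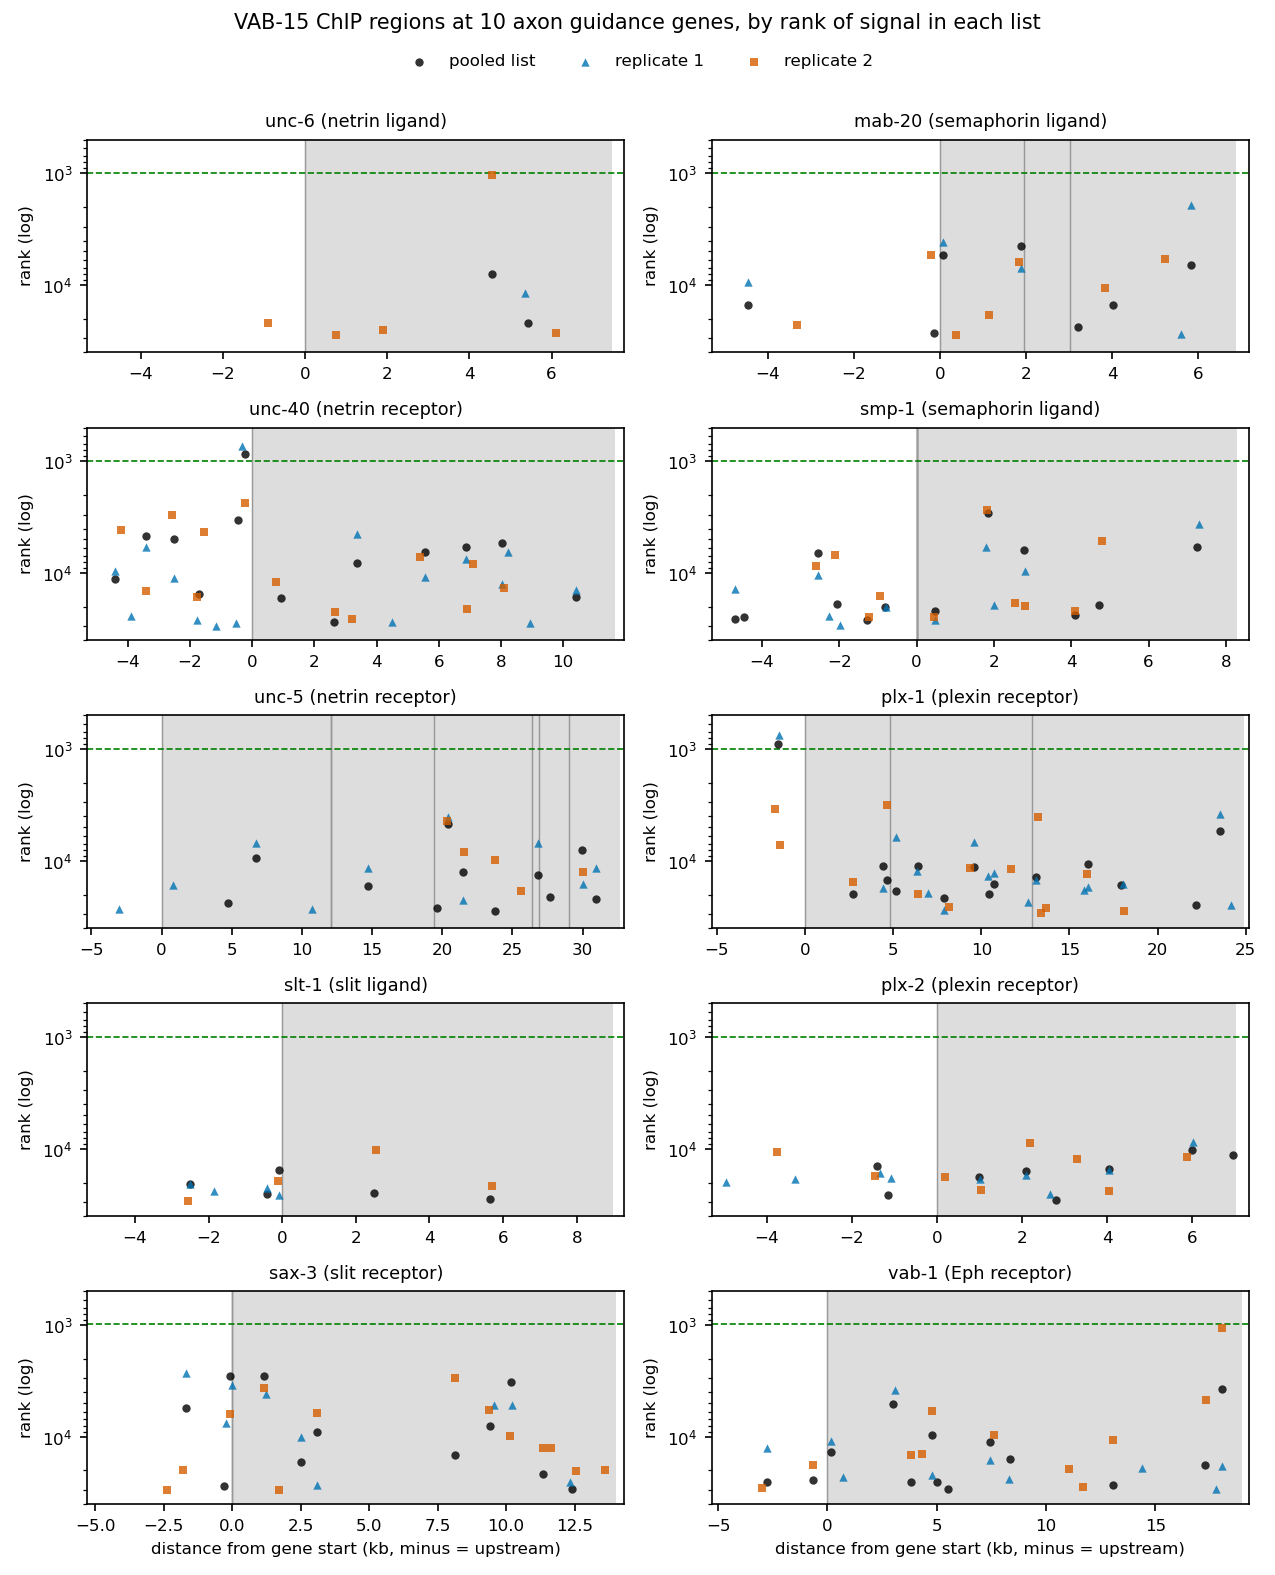
Regions of the pooled list (circles), replicate 1 (triangles) and replicate 2 (squares) by distance of the summit from the gene start (x axis, kb, minus is upstream) and rank of signal (y axis, log scale, strongest at the top) at each of the 10 genes. Grey bands are gene bodies, vertical lines annotated transcript starts and the dashed line rank 990; only unc-40 and plx-1 have points above that line, both upstream of the start and from the pooled list and replicate 1.

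The semaphorin genes had regions of middle rank. At mab-20 (WBGene00003111, chromosome I from 1644588 to 1651457), a secreted semaphorin gene, the strongest pooled region lay in a coding exon 79 bp before an internal transcript start (signal 64.5, rank 4438), with ranks of 7037 (replicate 1) and 6237 (replicate 2). A region in the 5′ UTR, 74 bp downstream of the gene start, ranked 5364 in the pooled list and 4116 in replicate 1, and had its nearest summit of replicate 2 280 bp away. In replicate 1 alone a coding region 5836 bp downstream stood higher, with a signal of 61.7 and rank 1914; the nearest summit of replicate 2 lay 609 bp from the pooled one. At smp-1 (WBGene00004889, chromosome I from 14807462 to 14815753), a transmembrane semaphorin gene, an intronic region 1841 bp downstream of the start led the pooled list (signal 74.4, rank 2929) and replicate 2 (29.1, rank 2724), and ranked 5903 in replicate 1 (42.5). Replicate 1 had its own strongest smp-1 region 7290 bp downstream, of rank 3634. The plexin gene plx-2 (WBGene00004048, chromosome II from 14417855 to 14424891) had best ranks of 10203 in the pooled list, 8767 in replicate 1 and 8916 in replicate 2. The start nearest to its strongest pooled region was that of another gene, exl-1, 5421 bp away. In the pooled list plx-2 was next to slt-1 as the weakest gene.

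The Eph receptor gene vab-1 (WBGene00006868, chromosome II from 4572000 to 4590970) had its strongest pooled region in a coding exon near its 3′ end, 18041 bp downstream of the start, with a signal of 68.5 and rank 3738. The start nearest to this region was that of ipla-1, 5451 bp away. The summits of both replicates lay within 2 bp of it, but the ranks were far apart, 18097 in replicate 1 (signal 27.9) and 1060 in replicate 2 (38.2). The next, in an intron 2995 bp downstream, ranked 5135 in the pooled list and 3788 in replicate 1, with the nearest summit of replicate 2 804 bp away. At the start itself, 155 bp downstream, vab-1 had a pooled region of rank 13621.

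**Figure D3:**
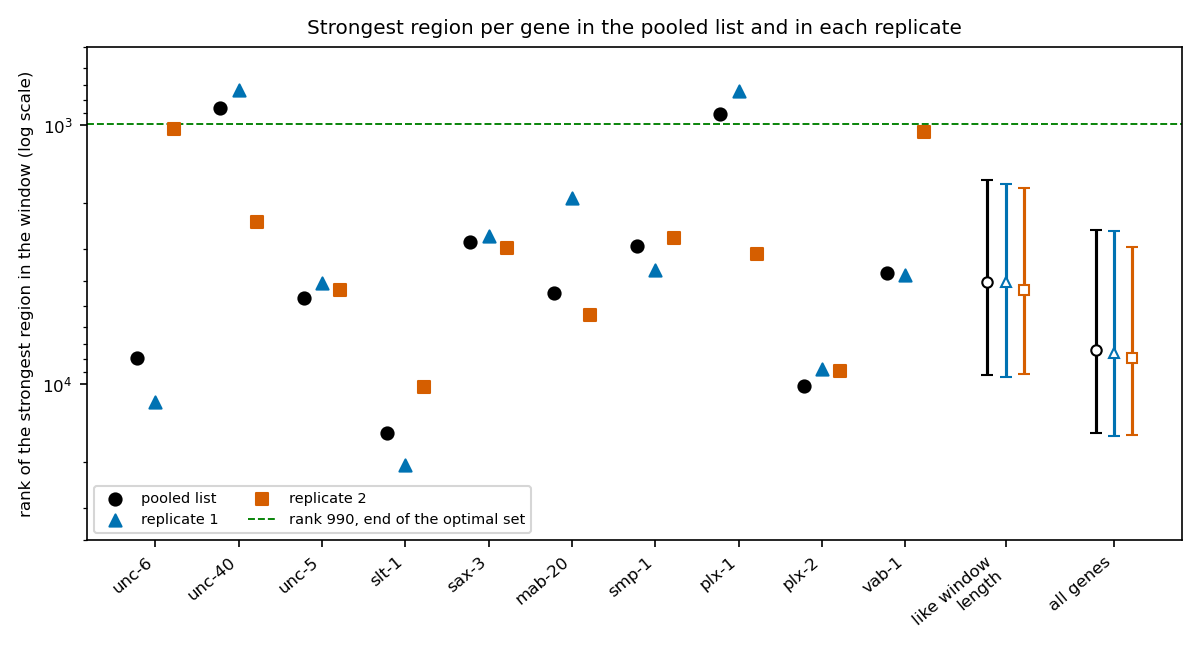
Rank of the strongest region in the window of each gene (y axis, log scale, strongest at the top) in the pooled list, replicate 1 and replicate 2. Open symbols with bars give the median and quartiles of the same value over genes with a region in the list. They are drawn from the 1918 genes with windows of like length and from all protein-coding genes. Most of the 10 genes lie within or below the quartiles of genes with like windows; unc-40 and plx-1 stand above them in the pooled list and replicate 1, and unc-6 and vab-1 in replicate 2.

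In the pooled list the order from the strongest region downwards was unc-40, plx-1, sax-3, smp-1, vab-1, mab-20, unc-5, unc-6, plx-2 and slt-1. The spans between the best ranks of the 2 replicates overlapped for all neighbours in this order except plx-2 and slt-1, and slt-1 came last in all 3 lists. Receptor genes reached from rank 862 to 10203 and ligand genes from 2929 to 15408, so the classes overlapped. The median best rank of the 10 genes was 4088 in the pooled list, 3711 in replicate 1 and 3061 in replicate 2. For the genes with like windows that had a region in the list (1780, 1799 and 1838 of 1918), it was 4042, 4056 and 4333. Of all 1918 genes with like windows, 13.2% held a region at least as strong as that of unc-40 in the pooled list. The share was 11.4% in replicate 1 and 31.0% in replicate 2. For unc-6 these shares were 65.3%, 76.9% and 14.9%, and for vab-1 43.6%, 44.3% and 15.2%.

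By the authors' q-value, 2 of the 97 pooled regions (2.06%) had q at or under 0.01, the peaks of unc-40 and plx-1, against 7.20% of the whole list. In replicate 1 there were 3 of 90 (3.33%, against 7.09%), those of unc-40, plx-1 and the coding region of mab-20. In replicate 2 there were 2 of 89 (2.25%, against 7.23%), those of unc-6 and vab-1. No gene had such a region in both replicates.

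How far the replicates placed regions alike was read from their summits. Of the 97 pooled regions, 66 had a summit of replicate 1 within 100 bp, 48 one of replicate 2 and 30 (30.9%) both, against 28.7% of all pooled regions and 92.3% of the optimal peaks. The pooled list was made from the same reads, so these shares do not count independent findings. The 30 lay at unc-40 (6), smp-1 (5), sax-3 (4), plx-2 (4), unc-5 (3), plx-1 (3), slt-1 (2), vab-1 (2) and mab-20 (1), with 0 at unc-6. The strongest summit of replicate 1 and that of replicate 2 lay within 100 bp at 2 of 10 genes, unc-40 and unc-5, against 22.2% of 1758 genes with like windows and a region in each replicate. At the other 8 genes they lay 812 bp (unc-6) to 14953 bp (vab-1) apart. Among the 285 genes with like windows and an optimal peak the share was 68.1%.

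By place, 25 of the 97 regions lay upstream of the gene, 37 in introns, 33 in coding exons and 1 in each kind of UTR, by the gene's own models. Counting coding exons of any gene, 38 summits (39.2%) lay in one, against 34.6% of the whole list and 3.23% of the optimal peaks. Summits inside protein-coding genes made up 79.4% at the guidance genes and 67.7% in the whole list. The rule admits only summits inside a gene or within 5000 bp upstream of it. It thus shapes these shares, which cannot show whether the regions resemble the whole list. The unc-40 and plx-1 peaks lay outside protein-coding genes, as did 72.1% of the optimal set. At the border of the windows, the farthest upstream regions that counted were 4699 bp from smp-1 (rank 25892), 4445 bp from mab-20 (rank 15134) and 4388 bp from unc-40 (rank 11417). Just outside lay regions 5249 bp upstream of sax-3 (rank 10073) and 5455 bp upstream of mab-20 (rank 5367).

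Among 51 other guidance genes, 2 (3.92%) held an optimal peak by the same rule, against 9.28% of all protein-coding genes, unmatched in window length. By group, these were 0 of 21 genes acting with netrin signalling or in axon outgrowth and 0 of 4 ephrins. They were 1 of 6 genes placed here with Slit and Robo, and 1 of 19 Wnt and adhesion genes. The semaphorin gene smp-2 had none. The gene lin-17, which encodes a Frizzled receptor for Wnt, had a peak 3838 bp downstream of its start and 768 bp downstream of an internal one. Its signal was 131, with ranks of 633 (pooled), 865 (replicate 1) and 517 (replicate 2). The peak counted for cle-1, the type XVIII collagen gene, lay 4335 bp upstream of it but 127 bp upstream of pas-4, a proteasome subunit gene; its signal was 151, with ranks of 433 (pooled), 583 (replicate 1) and 271 (replicate 2). Both peaks were among the 990 strongest of each replicate, unlike those of unc-40 and plx-1.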

How the data were processed

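Per the labels, the chromatin was sonicated. For the immunoprecipitation their description names an anti-GFP antibody, while their antibody field says vab-15. Per the notes deposited with the files, each replicate list was made from that replicate's alignment and a control file, the pooled list from both, and the optimal set from all 3 lists. Aligner, peak caller and thresholds: not given in the sources used here. The authors' signal value per region was used only to rank or describe regions within a list, since its scale differs between lists. The deposited -log10 q-value served to count regions with q at or under 0.01. The ce10 lists were left aside. Gene models were those of Ensembl 115 on WBcel235, the assembly of ce11, and sequence came from the RefSeq copy of that assembly.

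Summits were assigned to gene windows, regions ranked by signal, and each pooled summit paired with the nearest summit of each replicate, within 100 bp (Python 3.11.15, pandas 2.3.3, scipy 1.17.1 for the interval). The assignment was tested on planted summits. Genes of like window length were the 1918 protein-coding genes with windows of 11870 to 37675 bp. With 1 group there was no comparison between groups, and no test was run. The 10 genes, the list of 52 other guidance genes, the windows and the alternatives were chosen with earlier results of these data known. Of the 52 names, 51 matched the annotation, with mab-26 taken as efn-4. The text names all 10 genes, other guidance genes that held an optimal peak, and any gene whose start lay nearer than that of the guidance gene to one of its regions of rank 990 or better, of which there were 0; other names were chosen after their values were seen, as were 4 of the sequences shown (unc-6, vab-1 and plx-2). Alternatives changed the window, the list, the rank limit, the distance between summits and the motif.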

Additional observations from a re-analysis of the deposited data

How the results depend on the processing

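The count of 2 guidance genes with an optimal peak was the same with windows reaching 2000 or 10000 bp upstream, with upstream sequence alone, with the nearest transcript start, and with any overlap in place of the summit. It was 0 among optimal peaks at or above the median signal, and the count of genes with a top-ranked pooled region was 0 when the limit on rank was tightened to the better-ranked part of the 990. Leaving out a replicate, which means asking for a rank of 990 or better in the other alone, gave 0 to 2 genes, both for optimal peaks and for the 990 strongest regions: 0 without replicate 1 and 2 without replicate 2. The number of regions, 97, was 25 for upstream sequence alone and 70 to 109 under the other alternatives. Regions found in both replicates numbered 17 with summits within 50 bp (19.2% of all pooled regions then) and 41 within 200 bp (40.4%). Homeodomain cores were in 14 of the 97 regions within 100 bp of the summit, a smaller share than the 19.1% of all pooled regions. TAAT alone was in 47 of the 97, against 52.7% of all pooled regions. The 2 other guidance genes became 1 with 2000 bp upstream, with upstream sequence alone or with the nearest start, and 4 with 10000 bp upstream. The cause of these changes was not tested, apart from what each alternative leaves out. No paired analysis was possible because the series has 1 group. Depth is unknown, so a missing region cannot be told from one too weak to be listed.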

Other observations

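Values of a few other guidance genes without an optimal peak, named after their values were seen, are given here. In the pooled list the 3 that came nearest to rank 990 were sdn-1, ptp-3 and efn-2. The syndecan gene sdn-1 had its strongest pooled region 744 bp upstream of its start, at rank 1027 with a signal of 107. The best ranks of sdn-1 were 1376 in replicate 1 and 3079 in replicate 2, where the region at the pooled site ranked 3669. The best ranks of ptp-3, a receptor tyrosine phosphatase gene, were 1276 in the pooled list (signal 98.7), 1104 in replicate 1 and 1339 in replicate 2. In replicate 1 the region at the pooled site ranked 3490, so its best rank came from another site. The ephrin gene efn-2 had best ranks of 1383 in the pooled list (signal 96.2), 1705 in replicate 1 and 1953 in replicate 2. In replicate 2 the genes unc-14 (rank 988) and pat-3, which encodes a beta integrin (rank 929), had a region among the 990 strongest. Their best ranks were 1903 and 1980 in the pooled list and 3260 and 2727 in replicate 1. The start nearest to the strongest pooled region of pat-3 was that of another gene, ccdc-47. Beyond the windows used, pooled regions of rank 1261 and 1429 lay 7570 bp upstream of unc-40 and 7354 bp upstream of vab-1.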
